A study of Mus musculus with 6 samples.

Results

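The skeletal myosin heavy chain cluster of mouse chromosome 11 was followed through 5 of its genes, Myh4, Myh1, Myh2, Myh8 and Myh3. They were chosen by symbol and were all present among the 22036 genes of the table. Myh13, which follows Myh8 on the chromosome, was left out of the sums and shares. Read counts came from 6 Oxford Nanopore PCR-cDNA libraries of frozen skeletal muscle from mice labelled KO, for knockout of PRR14, a nuclear protein. In 3 libraries the muscle had received AAV virus (adeno-associated virus, used to carry genes into tissue) labelled MEF2C-GFP, after the muscle transcription factor MEF2C and green fluorescent protein. In the other 3 the virus carried GFP, and all muscle was taken 1 month after injection. Values of single libraries are given for replicates 1, 2 and 3 in that order. Every library carries the KO label and is virus-injected, and no wild-type or uninjected muscle was analysed here. Which muscle, strain, age, sex, viral promoter and dose were used is not stated in the labels, which also leave unsaid whether replicates are separate animals, so that p-values measure the spread between these libraries, which may be technical.

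Myosin heavy chains are the motor proteins of the thick filament, and the isoform a fibre makes sets much of its speed. Myh4 encodes the IIb isoform of the fastest, most glycolytic fibres, Myh1 the IIx isoform and Myh2 the IIa isoform of fast oxidative fibres. Myh3 is the embryonic and Myh8 the perinatal isoform, which are largely replaced after birth and return in regenerating fibres. The slow isoform, Myh7, lies on another chromosome, and MEF2 factors bind A/T-rich sites in many muscle promoters.

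In every library Myh4 was by far the most abundant of the 5 genes, with 76.9% to 92.2% of their summed reads. Of the 4 members that could be tested, 0 passed edgeR's adjusted p of 0.05 between MEF2C and GFP libraries, beside 0.0758% of all genes tested. An unadjusted edgeR p under 0.05 was found for 1, Myh8, beside 5.7% of all genes tested. The libraries labelled MEF2C did not share a composition: replicates 1 and 2 held the highest Myh2 levels of the 6 libraries, while replicate 3 held nearly the lowest, with the lowest Myh1 and the highest Myh4 share. Myh8, with 3 to 24 reads a library, was the sole tested member whose groups did not overlap, beside 11.1% of all genes. It passed the low-count filter through the MEF2C libraries alone, so that neither count for Myh8 supports a difference.

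The 5 genes stand in a row on the plus strand of GRCm38 chromosome 11. In order they are Myh3 at chr11:67078300-67102291, Myh2 at chr11:67171027-67197517, Myh1 at chr11:67200052-67224575, Myh4 at chr11:67238029-67260446 and Myh8 at chr11:67277124-67308634, all protein-coding. Their longest annotated transcripts run from 6016 bases for Myh4 to 6149 for Myh8, so that dividing the reads by transcript length moved no share by more than 0.192 percentage points. The annotation also holds the antisense genes 9430073C21Rik and Myhas, which overlap Myh2 and Myh1. The counting strand is not given in the sources used here, and reads of such antisense transcripts cannot be told apart from those of the myosins.

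The coding sequences are close relatives, which bears on how reads are assigned. Myh2 and Myh1 were identical at 90.94% of 5829 aligned bases, with a longest exact run of 268 bases. Myh1 and Myh4 were identical at 90.09%, with a run of 161 bases, and Myh4 and Myh8 at 87.93%, with a run of 164. Myh3 was more distant, at 80.18% to 80.97% of the other 4. Reads that cover only a short stretch are therefore uncertain between members, least so for Myh3 by its sequence. Any misassigned reads would weigh most in Myh8 and Myh3, whose few reads stand beside at least 40384 from Myh4. The 60-base coding window in which the 3 adult genes differ at the most positions, 25 in all, is shown as an example of what tells their reads apart. It starts at coding base 3851 in Myh2 and Myh1 and at base 3842 in Myh4, and capitals mark the positions where the 3 are not all alike (GENCODE vM21 transcripts, 5′ to 3′).
Myh2: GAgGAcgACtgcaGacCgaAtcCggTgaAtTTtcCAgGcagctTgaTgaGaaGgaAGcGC
Myh1: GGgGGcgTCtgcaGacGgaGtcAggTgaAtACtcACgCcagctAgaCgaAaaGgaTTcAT
Myh4: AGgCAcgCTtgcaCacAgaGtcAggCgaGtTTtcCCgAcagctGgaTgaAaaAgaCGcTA

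The 250 bases before the RefSeq transcript start of each gene (GRCm38.p6, plus strand, 5′ to 3′) are shown because MEF2 factors bind muscle promoters. Capitals mark the MEF2 consensus, a 10-letter A/T-rich motif given by name, and the 14-base word TTCTAATTATATCC, the longest that the windows of Myh1, Myh2, Myh4 and Myh8 share. The windows lie at chr11:67078050-67078299 (Myh3), chr11:67170777-67171026 (Myh2), chr11:67199852-67200101 (Myh1), chr11:67237562-67237811 (Myh4) and chr11:67276874-67277123 (Myh8).
Myh3: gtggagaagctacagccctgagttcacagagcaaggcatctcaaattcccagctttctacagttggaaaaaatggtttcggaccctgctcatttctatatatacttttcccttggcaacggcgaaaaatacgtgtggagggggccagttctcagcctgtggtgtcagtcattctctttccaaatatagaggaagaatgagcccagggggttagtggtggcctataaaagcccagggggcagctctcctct
Myh2: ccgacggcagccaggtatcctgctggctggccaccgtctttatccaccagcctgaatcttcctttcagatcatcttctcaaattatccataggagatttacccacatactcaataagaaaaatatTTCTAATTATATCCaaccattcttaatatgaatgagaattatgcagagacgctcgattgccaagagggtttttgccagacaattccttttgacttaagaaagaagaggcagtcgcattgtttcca
Myh1: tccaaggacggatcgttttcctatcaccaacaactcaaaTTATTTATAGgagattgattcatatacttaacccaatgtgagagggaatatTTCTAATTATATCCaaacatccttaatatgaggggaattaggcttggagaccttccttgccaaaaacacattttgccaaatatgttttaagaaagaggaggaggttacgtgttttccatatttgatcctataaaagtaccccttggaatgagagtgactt
Myh4: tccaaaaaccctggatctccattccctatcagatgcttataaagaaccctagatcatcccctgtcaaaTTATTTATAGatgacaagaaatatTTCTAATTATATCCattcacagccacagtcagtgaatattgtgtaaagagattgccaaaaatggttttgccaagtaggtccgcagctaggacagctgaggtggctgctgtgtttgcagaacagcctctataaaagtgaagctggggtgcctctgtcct
Myh8: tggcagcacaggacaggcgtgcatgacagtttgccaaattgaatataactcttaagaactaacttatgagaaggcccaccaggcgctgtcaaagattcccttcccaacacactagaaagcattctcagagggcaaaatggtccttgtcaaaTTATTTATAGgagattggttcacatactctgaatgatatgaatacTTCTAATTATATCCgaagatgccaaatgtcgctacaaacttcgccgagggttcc

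Both strands were searched from 250 bases before to 50 after the start. The MEF2 consensus was found once each in Myh1, Myh4 and Myh8, as TTATTTATAG at -211, -182 and -99 (first base, counted from the start), and in 3.19% of 32851 RefSeq promoter windows of the same length. Myh2 held no match. Its 10 bases closest to TTATTTATAG, namely TTATCCATAG at -168, differ from it by T5C and T6C. Positions are counted from 1 at the 5′ end, with the base of TTATTTATAG first. Closeness to the consensus itself, which allows other letters, was not measured. Myh3 held no match either. The shared word stood at -125 in Myh2, -160 in Myh1, -158 in Myh4 and -54 in Myh8. It was present in 4 of the 32851 windows (0.0122%), those of these 4 genes. As the longest word these 4 windows share, its presence in them follows from the choice. The word overlapped no full MEF2 match, with 41 bases between them in Myh1, 14 in Myh4 and 35 in Myh8. Its own stretch CTAATTATAT misses the MEF2 consensus only at the last base. TATAAAA, found in 5.48% of windows, stood at -29 in Myh3, -32 in Myh1 and -31 in Myh4, and after the annotated start, at 11, in Myh2. A CArG box (by name, 1.63% of windows) was found in Myh4, at -104. The E-box CANNTG (72.3% of windows) was found in Myh3, Myh4 and Myh8. These are matches of letters, not shown sites of binding.

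**Figure D1:**
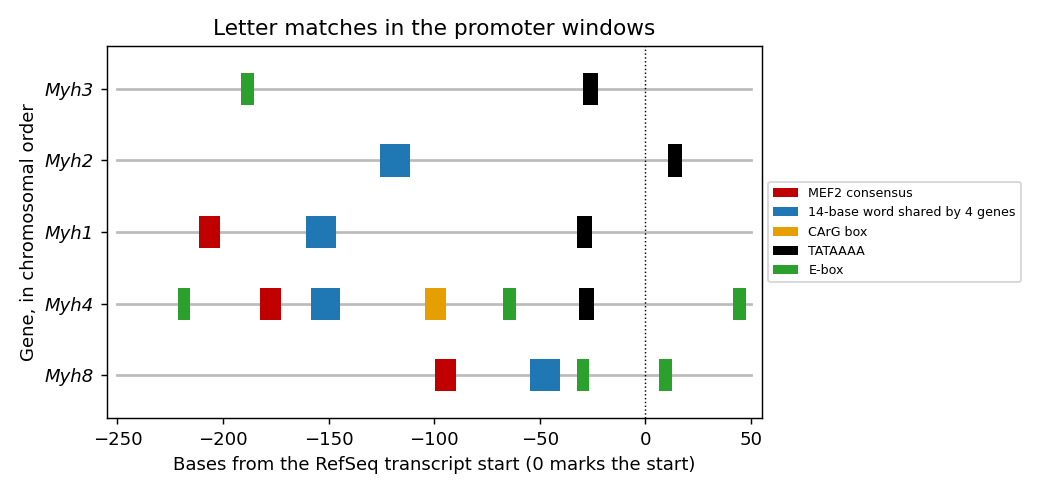
Letter matches in the promoter windows of the 5 genes, listed down the page in chromosomal order; the horizontal axis is the distance in bases from the RefSeq transcript start, and colours mark the motif. The MEF2 consensus stands before the shared 14-base word in Myh1, Myh4 and Myh8, while Myh2 has the word alone and Myh3 has neither.

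The libraries held 3814844 to 3838894 listed counts in the MEF2C group and 3370833 to 3900617 in the GFP group, and edgeR called 7 of 9229 tested genes, 3 higher and 4 lower. The labels were checked by the targeted and the delivered gene. Prr14 had 30, 23 and 20 reads in the 3 MEF2C libraries, against 11, 12 and 15 in the 3 GFP libraries. It was thus detected in all 6 libraries labelled KO, and every MEF2C library lay above every GFP library (log2 fold change 0.72 ± 0.32, edgeR adjusted p = 0.855). Which stretch of the gene was deleted is not given in the sources used here, and with no wild-type library these reads do not check the knockout. Mef2c stood at 235, 197 and 373 TMM-normalised CPM (counts scaled to a common library size) in the 3 MEF2C libraries and at 224, 263 and 237 in the 3 GFP libraries, so that MEF2C replicate 2 lay below all 3 GFP libraries, replicate 1 below 2 of them, and replicate 3 above all 3. Whether the reference held viral MEF2C transcripts is not given in the sources used here. MEF2C replicate 1 stood apart by granulocyte genes, whose 9 listed genes summed to 1271 CPM there, to 7.75 and 5.84 in MEF2C replicates 2 and 3, and to between 3.53 and 79.9 in the GFP libraries. The 10 slow-fibre genes summed to 1702, 1672 and 424 CPM in the 3 MEF2C libraries and to between 199.8 and 267 in the GFP libraries. The bone list (8 genes, Sp7 at 0 in every library) summed to between 35.0 and 458 CPM in MEF2C and between 33.9 and 57.5 in GFP libraries, highest in MEF2C replicate 1, and the erythroid list to between 4415 and 8687 in MEF2C and between 3099 and 4192 in GFP libraries. Lists of fibro-adipogenic cells (1952 to 2363 in MEF2C and 2243 to 2379 in GFP libraries) and smooth muscle (938 to 1010 in MEF2C and 711 to 922 in GFP libraries) differed less in size. The smooth-muscle sums were still higher in every MEF2C library than in every GFP library, as the slow-fibre and erythroid sums were. What these lists contribute to the values below was not tested, and each direction is that of the libraries labelled MEF2C.

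Myh4 stood at 13636, 10098 and 14850 CPM in the 3 MEF2C libraries, against 17348.5, 16407 and 13661 in the 3 GFP libraries. The highest values were those of GFP replicates 1 and 2 and the lowest that of MEF2C replicate 2, and the groups overlapped, since GFP replicate 3 lay between the MEF2C libraries. The mean was 12861 ± 2469 CPM in MEF2C and 15806 ± 1916 in GFP libraries (SD, n = 3 each). The log2 fold change was -0.30 ± 0.15 (SE), with a 95% interval from -0.61 to 0.02 and an edgeR adjusted p of 0.901. Without MEF2C replicate 2 it was -0.15, and without MEF2C replicate 3 it was -0.41, in neither case past the threshold. Scaling to library totals without TMM gave -0.17, while the median of all genes moved to 0.14 from 0.01 on the same scale.

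Myh1, the IIx gene, stood at 2095, 2104 and 1054 CPM in the 3 MEF2C libraries, against 2350, 1559 and 1854 in the 3 GFP libraries. MEF2C replicate 3 was the lowest of the 6, and the other MEF2C libraries lay between GFP replicates 1 and 3. The log2 fold change was -0.13 ± 0.31 (95% interval -0.90 to 0.63; edgeR adjusted p = 0.993). It turned to 0.13 without MEF2C replicate 3 and to 0.02 without GFP replicate 1, so these libraries give no direction for Myh1.

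Myh2, the IIa gene, varied most. It stood at 855, 921 and 194 CPM in the 3 MEF2C libraries, against 319, 168 and 560 in the 3 GFP libraries. MEF2C replicates 1 and 2 were the highest, GFP replicate 3 came next, and MEF2C replicate 3 lay with the lowest GFP library. The log2 fold change was 0.91 ± 0.80 (95% interval -1.27 to 3.09; edgeR adjusted p = 0.993). Leaving out MEF2C replicate 3 gave 1.34, leaving out GFP replicate 3 gave 1.43, and it was 0.58 without either MEF2C replicate 2 or GFP replicate 2. The interval spans 0 widely, and a p above the threshold does not show that the groups were alike.

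**Figure D2:**
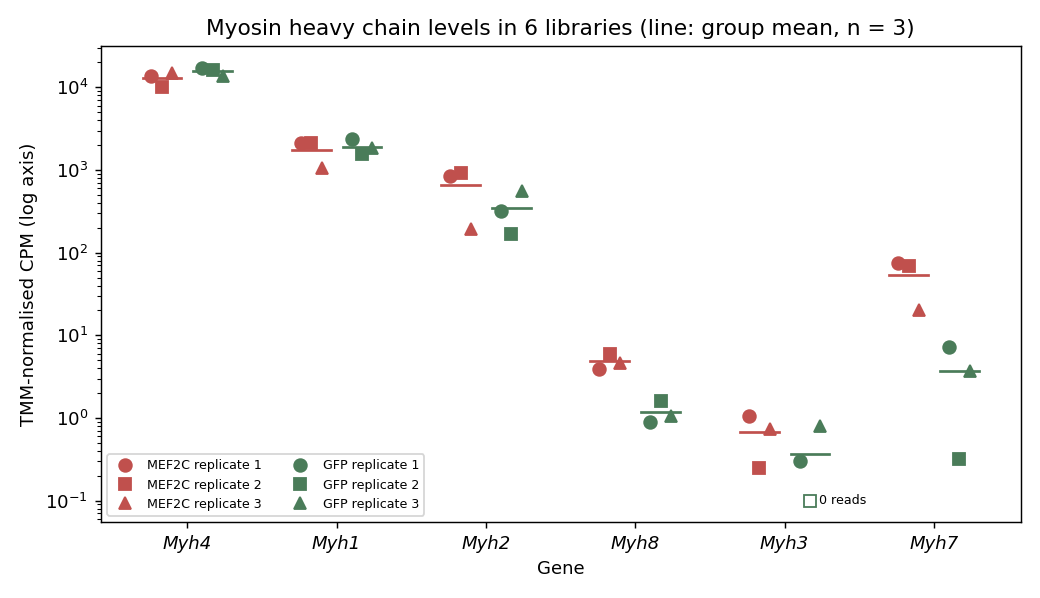
TMM-normalised CPM (vertical, log axis) of the 5 cluster genes and of the slow gene Myh7, with 1 point per library, MEF2C left of GFP, and a line at the group mean (n = 3 each); the open square stands for 0 reads. Among the adult fast genes the groups overlap, and MEF2C replicate 3 lies apart from the other MEF2C libraries for Myh1, Myh2 and Myh7.

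The spread of the adult genes was much larger than counting error. The standard deviation within groups, on the log2 CPM scale, was 1.08 for Myh2, above that of 317 of the 319 tested genes with between 0.5 and 2 times its mean count, whose median was 0.148. For Myh1 it was 0.457, above 139 of 141 such genes (median 0.140), and for Myh4 0.243, above 9 of 10 (median 0.156). In these bulk samples fewer fibres of a type and less RNA per fibre cannot be told apart.

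The 2 developmental members were near the detection limit. Myh8 had 15, 24 and 19 reads in the 3 MEF2C libraries, against 3, 5 and 4 in the 3 GFP libraries. Every MEF2C library lay above every GFP library, with 4.84 ± 1.07 CPM in MEF2C and 1.19 ± 0.370 in GFP libraries (SD, n = 3 each). The log2 fold change was 2.01 ± 0.42 (95% interval 1.12 to 2.90), with an unadjusted p of 0.000247 in the edgeR fit over all genes, which after adjustment was 0.163 and did not pass. Myh8 entered this fit through the MEF2C libraries alone: the low-count filter asks for 2.62 CPM (10 counts at the median library size) in 3 libraries, which 3 MEF2C and 0 GFP libraries reached. DESeq2 gave 2.03 ± 0.65 with an unadjusted p of 0.00173 and no adjusted p. With no filter on low counts, where edgeR called 35 of 15334 genes (0.228%), Myh8 passed with an adjusted p of 0.0174. That gain was not particular to Myh8, since the main fit called 0.0758% of its genes. Without the filter the unadjusted edgeR p of Myh4 also fell, to 0.0131 from 0.0631. Without MEF2C replicate 1 the log2 fold change of Myh8 was 2.14 and that of Myh2 0.67. The counts are small: 58 reads in the MEF2C libraries against 12 in the GFP libraries.

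Myh3, the embryonic gene, had 4, 1 and 3 reads in the 3 MEF2C libraries, against 1, 0 and 3 in the 3 GFP libraries. The groups overlapped, and a count of 0 in GFP replicate 2 allows up to 3 reads, or 0.962 normalised CPM. It was the 1 member of the 5 that did not pass the low-count filter, and without that filter its log2 fold change was 0.73 ± 1.01 (edgeR adjusted p = 0.947). Myh13, the extraocular-muscle gene next to Myh8, had 5, 8 and 1 reads in the 3 MEF2C libraries and 12, 3 and 14 in the 3 GFP libraries, also with overlap.

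Over the members, edgeR called 0 of the 4 tested, beside 0.0758% of all genes tested (0.0325% higher and 0.0433% lower), and 1 (Myh8) had an unadjusted p under 0.05, beside 5.7% of all genes (3.34% as higher). DESeq2 called 0 of the 3 for which it gave an adjusted p, beside 0.293% of all genes, and 1 of 4 had an unadjusted p under 0.05, beside 3.21% of all genes. Groups did not overlap for 1 of the 4, beside 11.1% of all genes (5.73% higher, as Myh8 was, and 5.36% lower). Because Myh8 passed the low-count filter only through the group where it is high, these counts do not support a difference.

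**Figure D3:**
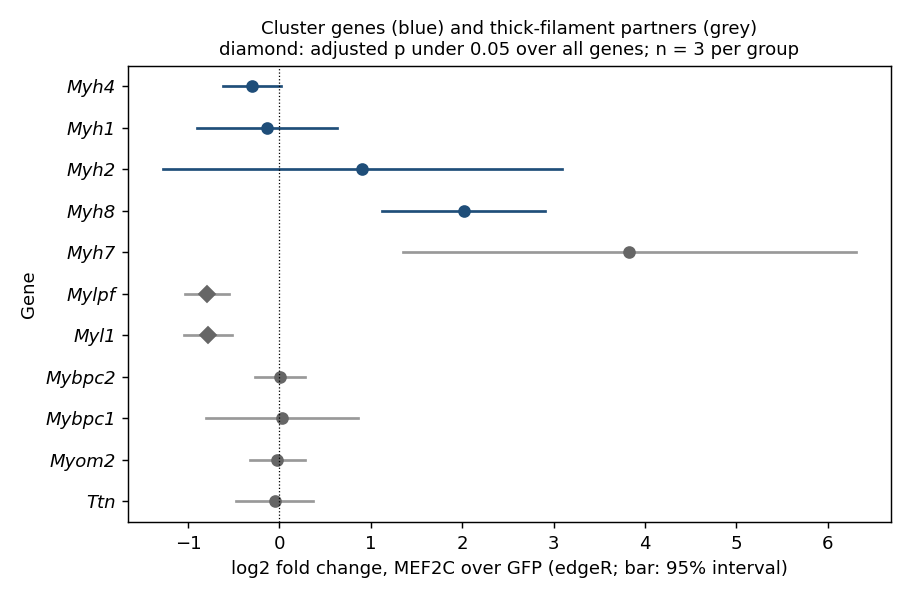
Log2 fold changes of MEF2C over GFP libraries (horizontal) with 95% intervals from edgeR, for the 4 tested cluster genes in blue and for Myh7 and thick-filament partners in grey; diamonds passed an adjusted p of 0.05 over all genes. The intervals of Myh4, Myh1 and Myh2 cross 0, and among the genes drawn Mylpf and Myl1 passed, as lower.

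Shares of the summed reads compare the isoforms without any scaling between libraries. The 5 genes together had 63711, 52507 and 66210 reads in the 3 MEF2C libraries and 67230, 56561 and 60370 in the 3 GFP libraries, which were 1.37% to 1.74% of all listed reads in MEF2C and 1.55% to 1.99% in GFP libraries. As normalised CPM the sum was 15274 ± 1873 in MEF2C and 18077 ± 1972 in GFP libraries (SD, n = 3 each). The groups overlapped, with a log2 difference of -0.24 and an exact two-sided permutation p of 0.3, where 3 libraries against 3 cannot go below 0.1. The lowest sum was that of MEF2C replicate 2.

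The Myh4 share was 82.2%, 76.9% and 92.2% in the 3 MEF2C libraries, against 86.7%, 90.5% and 85.0% in the 3 GFP libraries. The MEF2C libraries held both the lowest shares and the highest, around the GFP libraries, with means of 83.8% ± 7.77 in MEF2C and 87.4% ± 2.81 in GFP libraries (SD, n = 3 each; exact permutation p = 0.5). The Myh1 share was 12.6%, 16.0% and 6.55% in the 3 MEF2C libraries, against 11.7%, 8.60% and 11.5% in the 3 GFP libraries. Here too MEF2C replicates 2 and 3 lay outside the GFP range on opposite sides (exact permutation p = 0.8).

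The Myh2 share was 5.15%, 7.01% and 1.20% in the 3 MEF2C libraries, against 1.59%, 0.928% and 3.48% in the 3 GFP libraries. MEF2C replicates 1 and 2 stood above all GFP libraries, and MEF2C replicate 3 within their range (difference 2.45 points, exact permutation p = 0.3). Counting error taken read by read was far smaller than these gaps. The widest 95% Wilson interval of a share extended 0.360 points to each side for Myh4, 0.314 for Myh1 and 0.218 for Myh2. Such intervals cover counting error only. They take reads as independent molecules, which PCR copies are not, so that they may be too narrow. Myh8 made up 0.0235%, 0.0457% and 0.0287% in the 3 MEF2C libraries, against 0.00446%, 0.00884% and 0.00663% in the 3 GFP libraries, without overlap (exact permutation p = 0.1, adjusted over the 5 shares 0.5). Myh3 was at most 0.00628% in MEF2C and 0.00497% in GFP libraries.

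**Figure D4:**
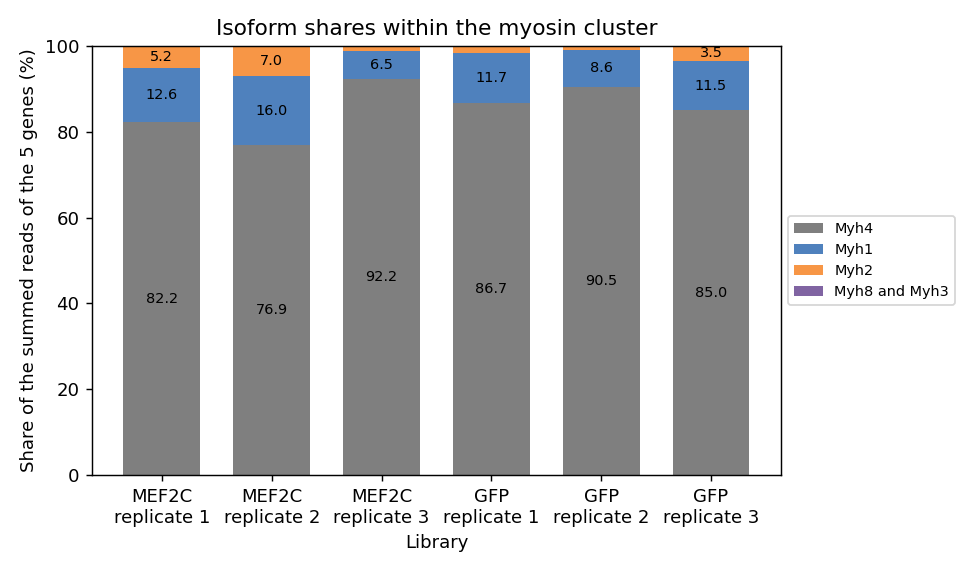
Share of each gene in the summed reads of the 5 genes (vertical, percent) in each library, MEF2C left of GFP; Myh8 and Myh3 together are too small to be seen. Myh4 is lowest in MEF2C replicate 2 at 76.9% and highest in MEF2C replicate 3 at 92.2%.

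Ratios within a library gave the same picture. For each Myh2 read there were 16.0, 10.97 and 76.6 Myh4 reads in the 3 MEF2C libraries, against 54.3, 97.5 and 24.4 in the 3 GFP libraries. The spread among MEF2C libraries was as wide as that among all 6, apart from GFP replicate 2, and the difference in the log2 ratio was 1.09 (exact permutation p = 0.3). For each Myh1 read there were 6.51, 4.80 and 14.1 Myh4 reads in the MEF2C libraries, against 7.38, 10.5 and 7.37 in the GFP libraries (log2 difference 0.13, exact permutation p = 0.8). For each Myh2 read there were 2.45, 2.29 and 5.44 Myh1 reads in the MEF2C libraries, against 7.36, 9.26 and 3.31 in the GFP libraries, with overlap through MEF2C replicate 3 and GFP replicate 3 (exact permutation p = 0.2).

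Myh7, the slow gene, separated the same MEF2C libraries. It had 287, 273 and 83 reads in the 3 MEF2C libraries, against 24, 1 and 14 in the 3 GFP libraries. The 2 MEF2C libraries with the most Myh7 were those with the most Myh2. Outside them the order differed, for GFP replicate 3 held more Myh2 than MEF2C replicate 3 and less Myh7. Its log2 difference was 3.83 ± 0.92 and did not pass in edgeR (adjusted p = 0.750). Of the 10 slow-fibre genes 9 were tested, all with a positive log2 fold change (median 3.51). By edgeR 0 were called, beside 0.0758% of all genes, and 8 had an unadjusted p under 0.05, beside 5.7% of all genes.

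The genes whose pattern over the 6 libraries lay closest to each member were sought by the root mean square difference of log2 CPM, each centred on its own mean, among 4432 or 4433 genes with a mean of at least 50 counts. For Myh2 they were Myoz2, a Z-disc protein of slow fibres (0.346), Ankrd2, a stretch-responsive ankyrin-repeat protein (0.364), and Fhl1, a LIM-domain protein (0.440). Myoz2 stood at 210, 290 and 57.9 CPM in the 3 MEF2C libraries, against 72.1, 69.6 and 112 in the 3 GFP libraries. Like Myh2, it was high in MEF2C replicates 1 and 2 and highest of its group in GFP replicate 3.

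For Myh1 the closest was Mybpc1, the slow-type myosin-binding protein C (0.126), then Pja1, a ubiquitin ligase (0.142), and Mettl7a1 (0.155). Mybpc1 stood at 932, 814 and 437 CPM in the 3 MEF2C libraries, against 859, 530 and 755 in the 3 GFP libraries, lowest in MEF2C replicate 3 as Myh1 was. For Myh4 they were Poglut1, which glucosylates Notch receptors (0.0374), Atl2, a GTPase that fuses endoplasmic reticulum tubules (0.0559), and Pcmtd2 (0.0643). For Myh8 they were the 3 genes that edgeR called higher, Chrna1, an acetylcholine receptor subunit of the neuromuscular junction (0.249), Ccl21a, a lymphatic chemokine (0.276), and Cyp2e1, a cytochrome P450 (0.292). Chrna1 stood at 136, 147 and 140 CPM in the 3 MEF2C libraries, against 54.2, 71.5 and 41.0 in the 3 GFP libraries. All these genes were picked for their likeness over the 6 libraries. Their shared highs and lows thus follow from the choice and are descriptions.

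**Figure D5:**
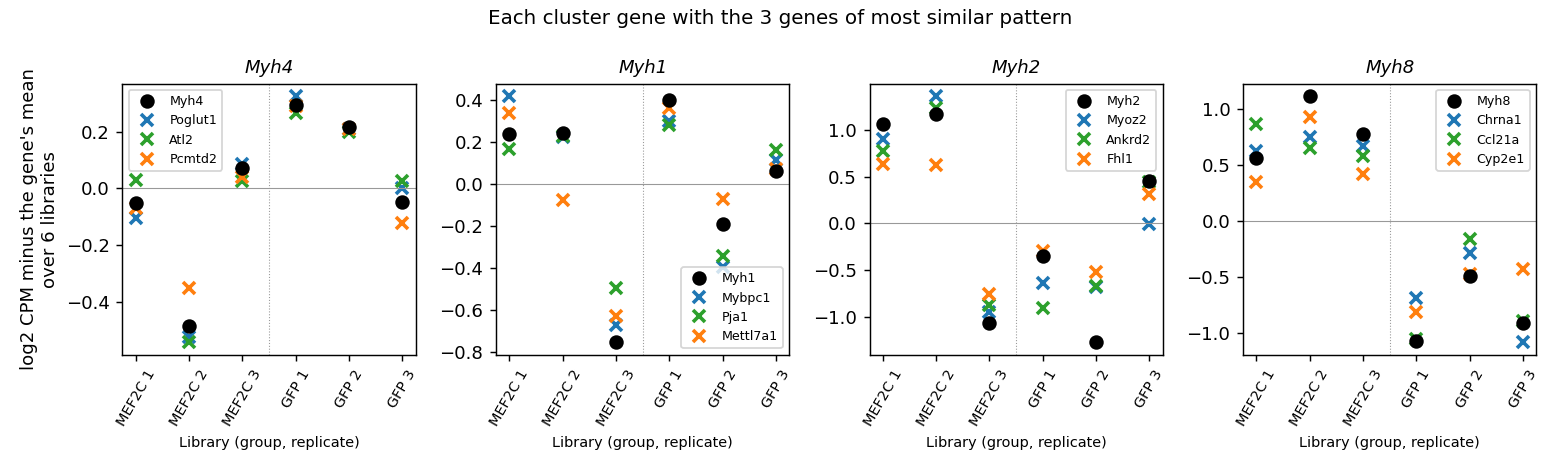
Log2 CPM of each tested cluster gene (black) and of its 3 closest genes (crosses), minus the gene's own mean over the 6 libraries (vertical, log2 units, a scale of its own per panel), with MEF2C libraries left of GFP libraries. Myh2 and its neighbours are high in MEF2C replicates 1 and 2 and low in MEF2C replicate 3, while Myh8 and its neighbours are high in all 3 MEF2C libraries.

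The partners of these myosins in the thick filament were read from the same fit. Of 18 listed genes 14 were tested, 0 passed as higher and 2 as lower, beside 0.0325% and 0.0433% of all genes. An unadjusted edgeR p under 0.05 was found for 5, beside 5.7% of all genes. They were Mylpf and Myl1, as lower, and the slow genes Myl3, Myh7 and Myl2, as higher. The slow genes had log2 fold changes of 3.51, 3.83 and 4.20 and did not pass (edgeR adjusted p = 0.750, 0.750 and 0.811). Myl3 and Myl2 were named after their values were seen. Of the 14, 8 were positive and 6 negative, so that the median of 0.01, equal to that of all genes, joins opposite directions. Those that passed were the fast light chains, which bind the neck of the myosin head: Mylpf at 22152 ± 1409 CPM in MEF2C and 38291 ± 3347 in GFP libraries, and Myl1 at 13818 ± 1471 in MEF2C and 23718 ± 2391 in GFP libraries (SD, n = 3 each). Their log2 fold changes were -0.79 ± 0.11 and -0.78 ± 0.12 (edgeR adjusted p = 0.0188 and 0.0343). Over 15 alternatives both kept their direction, but Mylpf passed in 9 and Myl1 in 5. Neither passed with non-robust dispersion, with the replicate block (adjusted p = 0.0930 for Mylpf and 0.117 for Myl1), or without MEF2C replicate 1 (0.115 and 0.115), MEF2C replicate 2 (0.118 and 0.189), GFP replicate 2 (0.146 and 0.214) or GFP replicate 3 (0.216 for both), all by edgeR. Myl1 also did not pass without GFP replicate 1 (0.0555), with library totals without TMM, with the strict filter or without the 50 most abundant genes in the library sizes. The 95% interval of Myh4 reaches -0.61, and whether Myh4 differed less than its light chains was not tested. Mybpc2, the fast myosin-binding protein C, stood at 0.00 ± 0.13 and titin (Ttn) at -0.05 ± 0.19 (edgeR adjusted p = 0.998 and 0.993), both named after their values were seen. The 1220 tested genes with transcripts of 5000 to 7000 bases, the length of the myosins, had a median of 0.03.

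Listed genes that act on the cluster, on myosin assembly or on protein breakdown did not pass. Of 26 listed regulators, among them the MEF2, MyoD and NFAT families, 23 were tested by edgeR and 0 called, beside 0.0758% of all genes. Of these 23, 0 had an unadjusted p under 0.05, beside 5.7% of all genes. Their median log2 fold change was -0.09, with 9 positive and 14 negative. Myod1, a myogenic factor, stood at -0.75 ± 0.35 and Ppargc1a, a coactivator of oxidative genes, at -0.37 ± 0.18 (edgeR adjusted p = 0.875 and 0.901). The assembly list also holds the ubiquitin ligase genes Trim63, Fbxo32 and Cul7, which act in protein breakdown. All 15 genes of that list were tested, and edgeR called 0, beside 0.0758% of all genes. An unadjusted edgeR p under 0.05 was found for 3, beside 5.7% of all genes. Of the 15, 4 were positive and 11 negative, with a median log2 fold change of -0.14. Trim63, Fbxo32 and Cul7, named after their values were seen, were among the 4 positive. Unc45b, the myosin chaperone of striated muscle, stood at -0.42 ± 0.13 and Hspa8, a heat shock cognate protein, at -0.41 ± 0.16 (edgeR adjusted p = 0.687 and 0.806).

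Markers of regenerating fibres were set beside Myh8 and Myh3. Of 17 listed genes 9 were tested and 1, Chrna1, passed as higher, beside 0.0325% of all genes. Of the 9, 3 were positive and 6 negative, with a median log2 fold change of -0.15. Chrna1 passed in 11 of 15 alternatives, and by edgeR did not with non-robust dispersion (adjusted p = 0.0780) or without MEF2C replicate 2 (0.118), GFP replicate 1 (0.0558) or GFP replicate 3 (0.141). Chrng, the fetal receptor subunit, had 1 read in MEF2C replicate 3 and 0 in the other libraries. Myl4, the embryonic light chain, had 66, 97 and 77 reads in the 3 MEF2C libraries and 78, 56 and 57 in the 3 GFP libraries, and a fitted log2 difference of 0.10 ± 0.22 (adjusted p = 0.993 in edgeR). Actc1, the cardiac actin of developing muscle, was lower on average, at 260 ± 147 CPM in MEF2C and 503.8 ± 157 in GFP libraries (SD, n = 3 each), and did not pass (edgeR adjusted p = 0.927). These 3 genes were named after their values were seen.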

How the data were processed

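Read counts per gene were deposited for 6 libraries, as counts per the file headers, with matching CPM columns. Per the submitters' processing notes, minimap2, DESeq2 1.6.3 and GRCm38 were used, with no role named; the counting tool, strand and annotation were not given in the sources used here. The deposited CPM, scaled by the authors to whole libraries, served only to recover library totals, of which the listed genes held 95.6% to 96.4%. Of the rows, 30 named no gene, held 0 counts and were left out. Listed counts summed to 3838894, 3824003 and 3814844 in the MEF2C group and 3370833, 3471928 and 3900617 in the GFP group (replicates 1 to 3), and a count of 0 allows 3 reads, or 0.730 to 0.962 TMM-normalised CPM. Libraries of 1 group differed beyond sampling noise (chi-square per degree of freedom 5.65 to 11.7).

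The counts were tested with edgeR 4.0.16 (R 4.3.3) by the robust quasi-likelihood test after its low-count filter and TMM, over all 9229 genes that passed, with Benjamini-Hochberg adjustment and calls under 0.05. Shares, sums and ratios were tested by exact permutation over libraries. The gene test was tried on simulated counts, and the permutation test on a small made-up set of values with separated groups. Alternatives were other scalings and filters, DESeq2 1.42.0, non-robust dispersion, a replicate block, a loess correction on transcript length (span 0.3), other denominators of the shares, and leaving out each library. Library sizes without the 50 most abundant genes were added after seeing the data. Coding sequences were the longest reading frames of GENCODE vM21 transcripts, aligned with MAFFT 7.526, and promoters came from RefSeq (GRCm38.p6), where all 5 members matched. The text names the members, Myh7 and Myh13, and the 3 closest patterns per tested member (log2 CPM with a prior count of 2). From the thick-filament, regulator, assembly and regeneration lists it names the called genes or the 2 with the smallest p. Genes named after their values were seen are marked as such. The other lists are given by their sums or counts, without naming their genes of smallest p. Members and lists were chosen with earlier results of these data known.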

Additional observations from a re-analysis of the deposited data

How the results depend on the processing

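The log2 fold changes of Myh4 (-0.41 to -0.15), Myh2 (0.58 to 1.43) and Myh8 (1.83 to 2.26) and the sum of the cluster (log2 difference -0.33 to -0.14) kept their direction when each library was left out, as did the shares of Myh4 (-7.81 to -0.16 points), Myh2 (1.18 to 4.08), Myh8 (0.0195 to 0.0306) and Myh3 (0.00101 to 0.00349) and the Myh2 to Myh4 ratio (0.53 to 1.93). Myh1 did not: its log2 fold change ran from -0.29 to 0.13 (0.13 without MEF2C replicate 3 and 0.02 without GFP replicate 1), its share from -1.04 points (without MEF2C replicate 2) to 3.70, and its ratio to Myh4 from -0.21 (without MEF2C replicate 2) to 0.57, with -0.04 without GFP replicate 2. The cause was not tested. The adjusted p of Myh8 ran from 0.0174 with no filter on low counts (log2 fold change 2.0001) to 0.939 without GFP replicate 3, with the strict filter it was not tested, and DESeq2 gave it no adjusted p. The other tested members did not pass under any alternative, with an adjusted p of at least 0.629. Library totals without TMM gave 2.15 for Myh8, 1.01 for Myh2, -0.02 for Myh1 and -0.12 for the sum.

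The number of genes called, 7, was 35 with no filter on low counts, 3 with the strict filter (at least 1 CPM in 3 libraries and a mean of 20 counts), 27 by DESeq2, 4 without the 50 most abundant genes in the library sizes, 0 with non-robust dispersion (558 at an unadjusted p under 0.05), and 0 to 22 when each library was left out: 3, 1 and 22 without MEF2C replicates 1, 2 or 3, and 2, 2 and 0 without GFP replicates 1, 2 or 3 (386 at an unadjusted p under 0.05 in the last). The replicate numbers did not pair the libraries: same-numbered libraries had correlations of their deviations of -0.23, 0.05 and -0.25. With the replicate block edgeR called 2 genes and gave -0.31 for Myh4, -0.18 for Myh1, 0.87 for Myh2 and 2.01 for Myh8, with an adjusted p of 0.196 for Myh8. Myh8 (3 to 24 reads a library) and Myh3 (0 to 4) rest on few reads.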
